A study of Homo sapiens with 6 samples.

Results

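The machinery of programmed cell death was followed through 31 genes: the BCL2 family, the caspases, the proteins that mitochondria release to activate them, and the receptor side of the pathway. The members were taken by gene symbol from the deposited table, which holds all 31 among its 17758 genes, and 30 of them had enough reads to be tested. The cells were T47D, an oestrogen receptor-positive line from a human breast ductal carcinoma, carrying a lentivirus with short hairpin RNA. In the control group, shNC, the hairpin has no target, and in the other, shCUEDC1, it is directed against CUEDC1, a gene whose product has a ubiquitin-binding CUE domain. Each group had 3 libraries of poly(A)-selected RNA, and both groups carry an integrated hairpin virus. The series calls the 3 libraries biological replicates and does not say whether they came from separate infections or how many hairpins were used. An effect of CUEDC1 and an off-target effect of the hairpin therefore cannot be told apart, and the p-values measure no more than the variation among these 6 libraries.

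Mitochondrial apoptosis is decided by binding between BCL2 family proteins. The pro-survival members followed here are BCL2, BCL-XL (from BCL2L1), MCL1 and BFL-1 (from BCL2A1), without BCL2L2. They hold the pore formers BAX and BAK in check. The BH3-only proteins (BIM, PUMA, NOXA, BMF, BIK, HRK, BAD and BID) relieve that restraint or activate the pore formers directly. Once the outer membrane opens, cytochrome c joins APAF1 and caspase-9 in the apoptosome, while SMAC (from DIABLO) and HTRA2 displace XIAP from caspases. Death receptors reach the same end through FADD and caspase-8, a step that CFLAR blocks. Of the 31 members, 6 were classed as pro-survival (BCL2, BCL2L1, MCL1, BCL2A1, XIAP and CFLAR) and 22 as pro-death. BCL2L13, CASP4 and TRADD were assigned to neither side.

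CUEDC1, the target of the hairpin, was at 79.4, 80.5 and 70.6 TPM (the authors' transcript level, scaled for gene length and library size) in shNC 1, 2 and 3. It was at 23.2, 24.4 and 22.8 TPM in shCUEDC1 1, 2 and 3, a fall of 68.9% (edgeR adjusted p = 9.27e-06, exact two-sided permutation p = 0.1, the smallest possible with 3 against 3). Library totals ran from 18924327 to 19731609 estimated reads. The library shNC 3 stood apart from its own group: among genes averaging 10 CPM or more (reads scaled to library size), the SD of the log2 difference to shNC 1 and 2 was 0.253 and 0.273, against 0.110 between those 2 libraries and 0.236 to 0.254 between them and the knockdown libraries. The luminal keratins KRT8, KRT18 and KRT19, EPCAM, GATA3, FOXA1, XBP1, SPDEF, ESR1 and PGR were all present, with a summed level of 12055 to 14391 TPM in shNC and 14205 to 14565 TPM in shCUEDC1. Summed basal and myoepithelial markers were at 46.2 to 85.2 TPM in shNC, lowest in shNC 3, and at 55.1 to 58.0 TPM in shCUEDC1. Most of that sum came from ACTA2 (24.4 to 41.5 TPM over the 6 libraries) and KRT17 (13.7 to 32.1 TPM), with TP63 at 4.43 to 7.05 TPM, EGFR at 2.92 to 4.80 TPM, and KRT5 and KRT14 at no more than 0.40 and 0.64 TPM. None of the 4 tested basal markers was called by edgeR, and none of the luminal markers other than SPDEF, which rose (log2 change 0.33, edgeR adjusted p = 0.00209). Summed stromal, endothelial and immune markers were at 16.4 to 18.0 TPM in shNC and 20.8 to 24.5 TPM in shCUEDC1, with CD3E at 0.08 TPM or less. Most of that sum was COL1A1, at 8.69 to 11.0 TPM in shNC and 12.62 to 16.01 TPM in shCUEDC1, which rose (edgeR adjusted p = 0.00843). The part of these markers in the results below was not tested.

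With edgeR's quasi-likelihood test and Benjamini-Hochberg adjustment over all 13824 genes tested, 5 of the 30 tested members passed an adjusted p of 0.05. BMF, TRADD and CASP4 rose, and BID and CYCS fell. Over all genes, 9.96% were called, 5.19% higher and 4.77% lower, against 16.7% of the tested members. That difference rests on few genes and is not read as a property of the list. The log2 change was above 0 for 17 of the tested members and below 0 for 13, with a median of 0.02, against a median of -0.004 over all genes. No member was called with a change of more than 2-fold, the size the submitters asked of a changed gene, which 1.17% of all genes reached. That count of 0 by edgeR was also 0 at an unadjusted p below 0.05 and by DESeq2 and limma-voom. In RNA from whole cultures, fewer cells of a kind and less RNA per cell cannot be told apart.

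The promoters of the changed members are shown so that the genes that rose can be set beside those that fell. RefSeq windows of 300 bases (250 before the transcription start and 50 after it, build GRCh38.p14) were matched for 26 of the 31 members, and the first window listed for each gene was used (of 5 for BID, 2 for BMF, and 1 each for CASP4 and CYCS). They are on the minus strand of the genome and are written 5′ to 3′ in the direction of the gene. Capitals mark letters of any of 5 motifs, searched on both strands: the GC box (GGGCGG), the CCAAT box (CCAAT), the core of the cAMP response element (TGACG), the E-box (CACGTG) and the interferon-stimulated response element (TTTC, any 2 bases, TTTC). The windows of the genes that rose are chr15:40108830-40109129 for BMF and chr11:104968525-104968824 for CASP4. Those of the genes that fell are chr22:17774420-17774719 for BID and chr7:25125211-25125510 for CYCS. TRADD was not matched.

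BMF: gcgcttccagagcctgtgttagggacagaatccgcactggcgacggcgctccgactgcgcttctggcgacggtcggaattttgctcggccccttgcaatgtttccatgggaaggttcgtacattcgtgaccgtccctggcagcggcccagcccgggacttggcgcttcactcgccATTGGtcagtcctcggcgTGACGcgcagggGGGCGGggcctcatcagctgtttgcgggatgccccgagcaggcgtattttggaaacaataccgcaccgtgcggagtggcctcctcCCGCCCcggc
CASP4: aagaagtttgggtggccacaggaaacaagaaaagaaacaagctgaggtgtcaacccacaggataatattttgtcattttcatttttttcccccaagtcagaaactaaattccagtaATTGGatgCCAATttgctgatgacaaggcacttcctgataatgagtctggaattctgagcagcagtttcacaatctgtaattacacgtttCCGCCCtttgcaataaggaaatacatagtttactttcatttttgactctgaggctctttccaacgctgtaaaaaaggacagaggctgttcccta
BID: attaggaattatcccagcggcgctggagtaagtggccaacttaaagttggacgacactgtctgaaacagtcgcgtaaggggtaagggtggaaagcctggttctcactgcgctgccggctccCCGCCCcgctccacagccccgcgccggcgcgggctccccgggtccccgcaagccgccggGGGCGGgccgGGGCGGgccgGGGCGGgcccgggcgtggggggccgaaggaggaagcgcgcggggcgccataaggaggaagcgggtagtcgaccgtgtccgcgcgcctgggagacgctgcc
CYCS: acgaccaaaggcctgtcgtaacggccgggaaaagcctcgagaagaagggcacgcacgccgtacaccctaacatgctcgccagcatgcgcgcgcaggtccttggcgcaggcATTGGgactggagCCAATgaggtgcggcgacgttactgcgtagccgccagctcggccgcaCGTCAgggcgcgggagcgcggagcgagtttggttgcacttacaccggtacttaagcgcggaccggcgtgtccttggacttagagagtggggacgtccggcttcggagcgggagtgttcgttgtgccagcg

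The 2 windows of genes that rose did not resemble each other in composition: G and C made up 65.0% of the BMF window and 39.7% of the CASP4 window, the lowest of the matched members. The windows of the genes that fell held 71.7% (BID) and 64.7% (CYCS), and the median was 66.5% over matched members and 58.3% over the first windows of 27305 genes. The BID window held 4 GC boxes and none of the other motifs. The CYCS window held 2 CCAAT boxes on opposite strands and 1 TGACG, and no GC box. The CASP4 window also held 2 CCAAT boxes on opposite strands, beside 1 GC box. The BMF window held 2 GC boxes, 1 CCAAT box and 1 TGACG. No motif was shared by all 4 windows. Among matched members 20 of 26 (76.9%) had a GC box, against 44.6% of all genes. For the CCAAT box the figures were 11 members (42.3%) and 35.7%, and for TGACG 9 members (34.6%) and 25.0%. The E-box was present in 3 members (11.5%) against 7.43%, and the interferon element in 3 members (11.5%) against 3.65%. The last was found in BCL2A1, BBC3 and CASP8, none of which was called.

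Pro-survival BCL2 genes did not pass the test in either direction, and their levels differed from one another far more than between the groups. BCL2L1 was the most abundant of all 31 members, at 242, 237 and 259 TPM in shNC 1, 2 and 3 and at 264, 262 and 239 TPM in shCUEDC1 1, 2 and 3. The groups overlapped, and BCL2L1 differed by 0.08 on the log2 scale, with a 95% interval of -0.03 to 0.18 (edgeR adjusted p = 0.351). As a percentage, the interval ran from -1.96% to 13.6%. MCL1, the short-lived protein that NOXA helps to degrade, was second in level, at 194, 198 and 209 TPM in shNC and 202, 203 and 203 TPM in shCUEDC1. The shCUEDC1 libraries lay inside the range of the shNC libraries, and MCL1 differed by 0.05 on the log2 scale, with a 95% interval of -0.04 to 0.14 (edgeR adjusted p = 0.496).

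BCL2 itself, the founding member and the target of venetoclax, had 3 to 5 reads in each shNC library and 1 to 4 in each shCUEDC1 library. It was at 0.13, 0.08 and 0.22 TPM in shNC and 0.27, 0.07 and 0.13 TPM in shCUEDC1, the lowest of the 31 members, and was not tested. BCL2A1, a short-lived family member induced by NF-kB, was at 5.59, 7.53 and 9.17 TPM in shNC and 5.42, 5.57 and 8.89 TPM in shCUEDC1. Both groups had 1 library near 9 TPM and overlapped, and with 38 to 64 reads per library the 95% interval of its log2 difference ran from -0.72 to 0.49. BCL2L1 and MCL1 together made up most of the summed TPM of the 4 pro-survival BCL2 genes among the members. Their share was 98.3% ± 0.339 in shNC and 98.5% ± 0.463 in shCUEDC1 (SD, n = 3 each). BCL2L2, a further pro-survival relative, was on the list of other cell death genes and is not in that sum. Its mean was 23.5 TPM in shNC and 23.8 TPM in shCUEDC1, above BCL2 and BCL2A1, so the share depends on the genes listed. BCL2L2 was not called (log2 difference 0.05, edgeR adjusted p = 0.679).

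**Figure D1:**
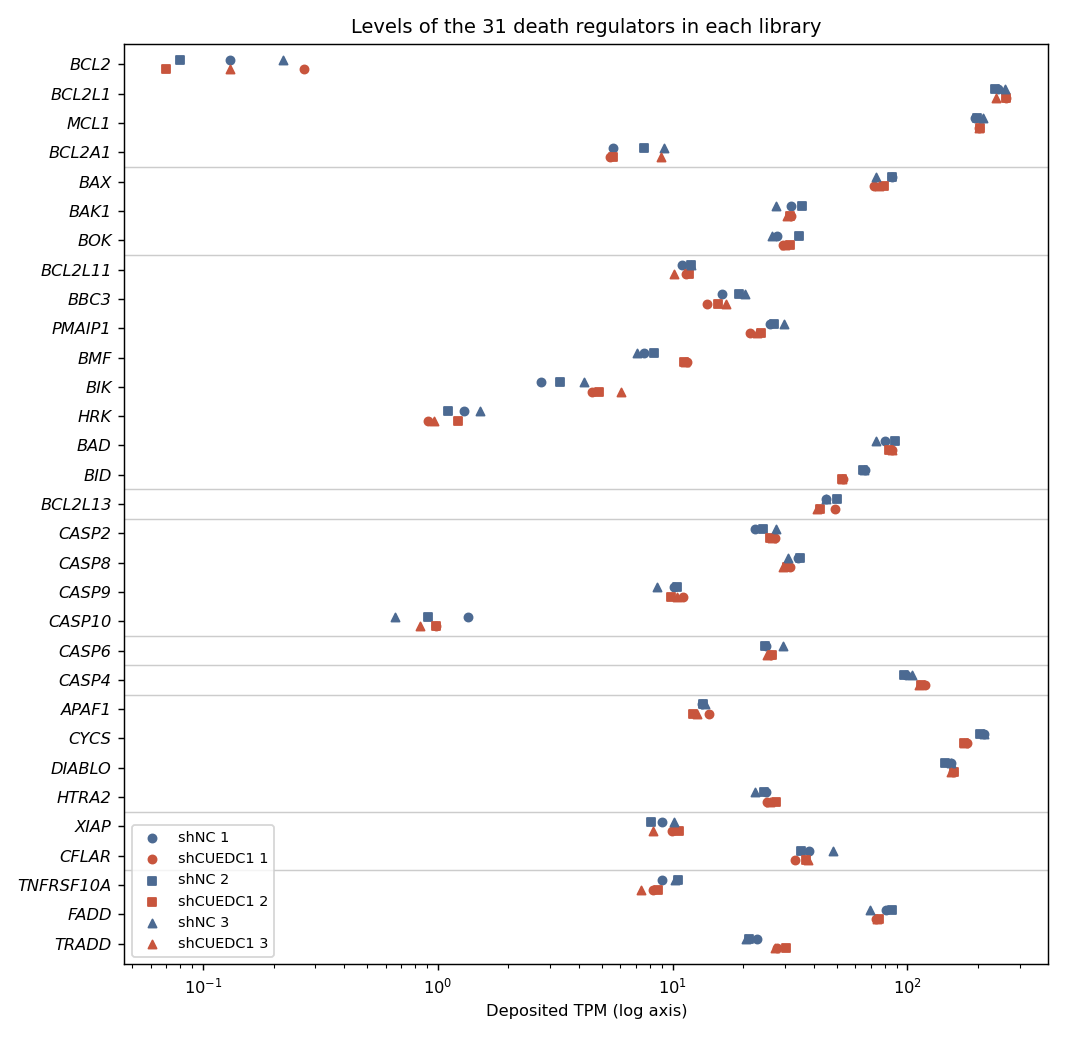
Deposited TPM of the 31 members on a log axis, with 1 point per library, shNC in blue and shCUEDC1 in red, and grey lines between roles. BCL2L1, MCL1, CYCS and DIABLO are the most abundant, from 144 to 264 TPM, and BCL2 is at most at 0.27 TPM.

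The pore formers were at similar levels in both groups. BAX was at 85.6, 86.1 and 73.6 TPM in shNC and 72.4, 79.5 and 75.4 TPM in shCUEDC1, so the lowest shNC library, shNC 3, lay among the knockdown libraries. The log2 difference of BAX was -0.07, with a 95% interval of -0.24 to 0.11 (edgeR adjusted p = 0.641). BAK1, at 27.5 to 35.7 TPM in shNC and 30.84 to 31.95 TPM in shCUEDC1, differed by 0.02 (95% interval -0.20 to 0.24). BOK, a related pore former that is not restrained by the pro-survival proteins in the same way, was at 26.5 to 34.4 TPM and 29.4 to 31.8 TPM and differed by 0.08 (95% interval -0.15 to 0.31). In each of the 3 genes shNC 3 had the lowest shNC value and shNC 2 the highest. None was called by edgeR, DESeq2 or limma-voom, and none had an unadjusted p below 0.05 with all 6 libraries. Without shNC 3 the log2 differences were -0.08 for BAK1 and -0.004 for BOK, so the sign of both turned on that library.

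BH3-only genes moved in both directions. BMF, a BH3-only protein that in healthy cells is bound to the actin and myosin motor complexes, was at 7.58, 8.32 and 7.05 TPM in shNC 1, 2 and 3. It was at 11.5, 11.2 and 11.3 TPM in shCUEDC1 1, 2 and 3. Every knockdown library lay above every control library, and the knockdown libraries were close together. The rise of BMF was 50.1%, or 0.59 on the log2 scale with an SE of 0.0880 and a 95% interval of 0.39 to 0.78 (edgeR adjusted p = 0.00349). It was the only member called in all 6 fits that left out 1 library, with log2 changes of 0.52 to 0.66 and a highest edgeR adjusted p of 0.0313. GENCODE 29 (GRCh38) places BMF at chr15:40087890-40108892, minus strand, and an exon of BMF-AS1 overlaps it on the other strand. Whether reads were counted by strand is not stated in the labels, so reads of such pairs may not have been told apart. Of the 31 members, 16 share exon positions with a gene on the other strand.

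BIK, an endoplasmic reticulum BH3-only protein, had the largest log2 difference of all members, 0.62 (SE 0.237), but was not called (edgeR adjusted p = 0.133). It was at 2.76, 3.32 and 4.18 TPM in shNC and 4.55, 4.87 and 6.05 TPM in shCUEDC1, with 24 to 53 reads per library. The groups did not overlap, but shNC 3 came close to shCUEDC1 1. Without shNC 3, BIK differed by 0.78 and passed the threshold (edgeR adjusted p = 0.0249).

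BID, which caspase-8 cleaves to carry the death receptor signal to mitochondria, was at 65.7, 64.4 and 65.5 TPM in shNC. It was at 53.0, 52.8 and 52.5 TPM in shCUEDC1. The SD within a group was 0.688 TPM in shNC and 0.251 TPM in shCUEDC1, far below the distance between the groups. The fall of BID was -17.4%, or -0.28 on the log2 scale with an SE of 0.0526 and a 95% interval of -0.39 to -0.16 (edgeR adjusted p = 0.0107). Its call was lost without shNC 1, shCUEDC1 1 or shCUEDC1 2, with edgeR adjusted p of 0.0543, 0.0668 and 0.0728. Its log2 change in the 6 fits that left out 1 library was between -0.29 and -0.26. BID is annotated at chr22:17734138-17774770, minus strand.

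PMAIP1 and BBC3 encode the BH3-only proteins NOXA and PUMA. PMAIP1 was at 25.98, 27.1 and 29.8 TPM in shNC and 21.3, 23.9 and 22.9 TPM in shCUEDC1. The groups did not overlap, but the log2 difference of -0.28 (SE 0.0818) did not pass the threshold (edgeR adjusted p = 0.0625). Without shNC 3 it was -0.23 with an edgeR adjusted p of 0.0286. BBC3 was at 16.2, 19.1 and 20.3 TPM in shNC and 14.1, 15.6 and 17.0 TPM in shCUEDC1. Its groups overlapped, since shCUEDC1 3 lay above shNC 1, and BBC3 differed by -0.23 on the log2 scale, with a 95% interval of -0.46 to 0.01 (edgeR adjusted p = 0.209).

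The remaining BH3-only genes were not called. BCL2L11, which encodes BIM, was at 11.0 to 12.0 TPM in shNC and 10.1 to 11.7 TPM in shCUEDC1, with a log2 difference of -0.02 (95% interval -0.21 to 0.17). BAD, which AKT phosphorylates and so inactivates, was the most abundant BH3-only gene, at 73.2 to 88.6 TPM in shNC and 83.5 to 86.2 TPM in shCUEDC1. Its log2 difference was 0.10 (95% interval -0.09 to 0.29). HRK, mainly known from neurons, was at 1.11 to 1.52 TPM in shNC and 0.91 to 1.22 TPM in shCUEDC1, with a log2 difference of -0.32 (95% interval -0.75 to 0.11). BCL2L13, a mitochondrial outer membrane protein of the family with a role in mitophagy, was at 44.8 to 50.2 TPM and 41.0 to 49.0 TPM, with a log2 difference of -0.06 (95% interval -0.23 to 0.10).

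**Figure D2:**
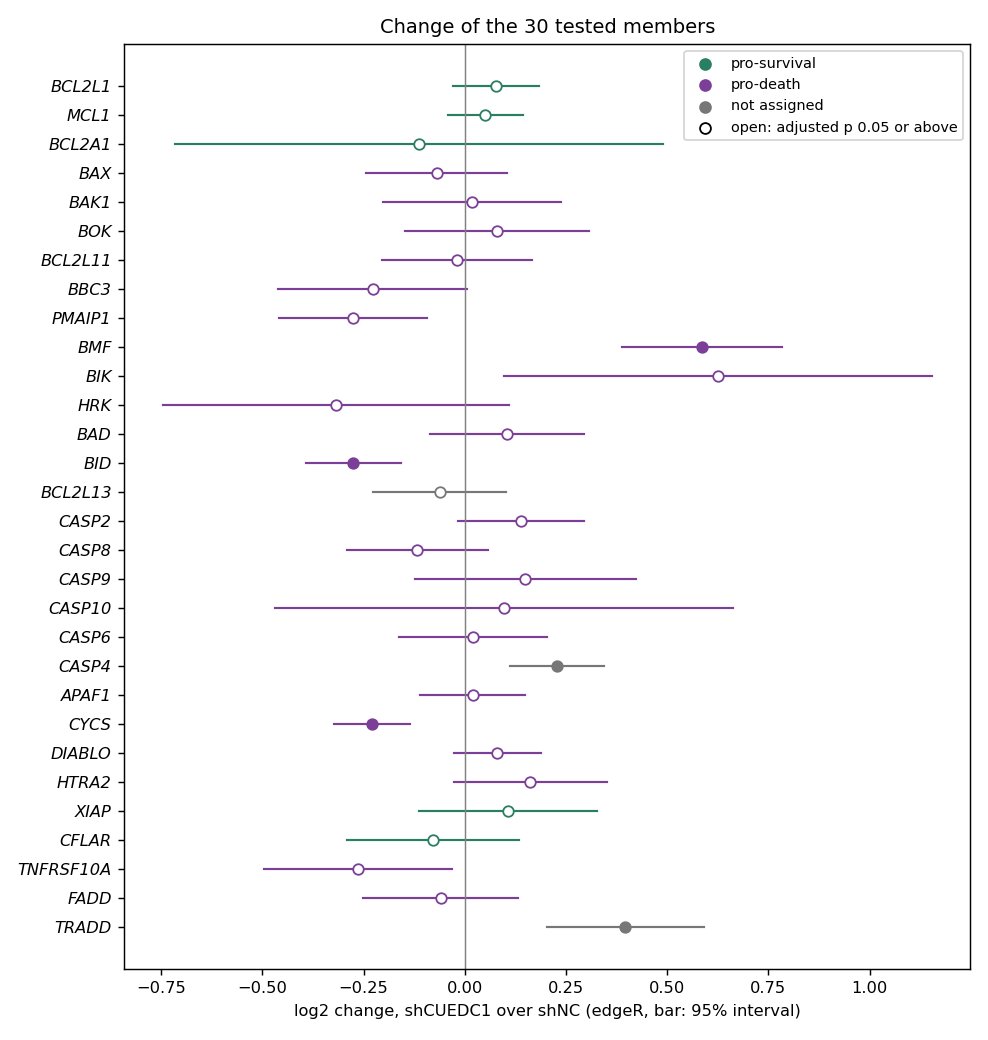
Log2 change of each tested member, shCUEDC1 over shNC, with its 95% interval (edgeR, 3 libraries a group), coloured by side and filled where the adjusted p is below 0.05. Filled points are BMF, TRADD and CASP4 to the right of 0 and BID and CYCS to the left, and all 5 pro-survival members shown are open.

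Summed over the 8 BH3-only genes, the level was 211, 224 and 214 TPM in shNC and 203, 205 and 207 TPM in shCUEDC1. The sums did not overlap, with every shCUEDC1 library below every shNC library, the nearest at 207 and 211 TPM. On the TPM scale the median log2 ratio over all tested genes was -0.03, and 18.5% of them were lower without overlap. The part of that offset in the separation of the sums was not tested. Without BID, the sums were 145, 159 and 148 TPM in shNC and 150, 152 and 154 TPM in shCUEDC1, which overlap. Since BID was the BH3-only gene called lower, that overlap is no separate result. BMF made up 3.30% to 3.72% of the BH3-only sum in shNC and 5.45% to 5.66% in shCUEDC1, and BID 28.8% to 31.2% and 25.4% to 26.1%. The ratio of the pro-survival BCL2 sum (without BCL2L2) to the BH3-only sum was 2.10, 1.98 and 2.24 in shNC and 2.32, 2.30 and 2.18 in shCUEDC1. These ratios overlapped, with shNC 3 inside the knockdown range.

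**Figure D3:**
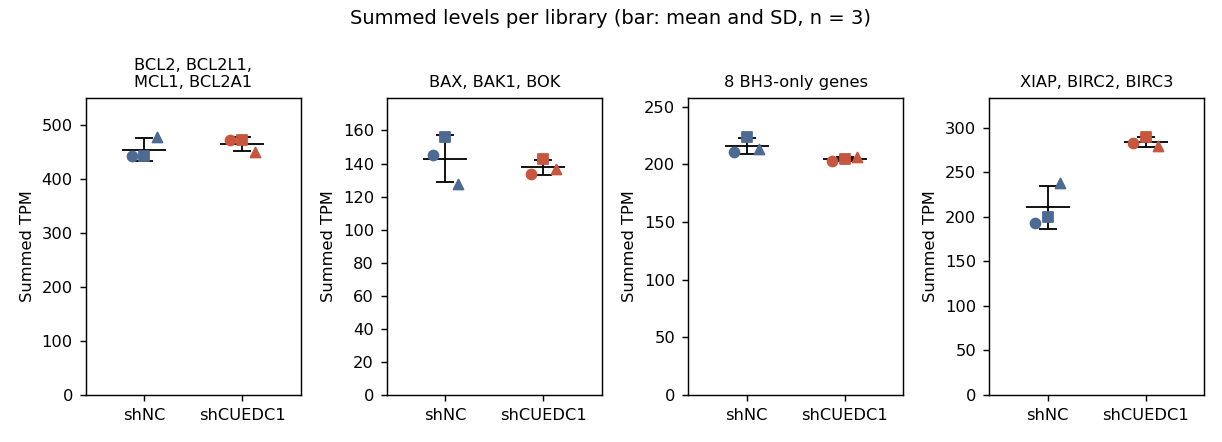
Summed TPM per library for the pro-survival BCL2 genes, the pore formers, the BH3-only genes and, chosen after their values were seen, XIAP with BIRC2 and BIRC3, with 1 point per library and the mean and SD (n = 3) as bars. The first pair of panels overlaps between groups, the BH3-only sums lie at 211 to 224 TPM against 203 to 207 TPM, and the sums with BIRC2 and BIRC3 lie at 193 to 238 TPM against 280 to 290 TPM.

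The initiator caspases were not called by edgeR, DESeq2 or limma-voom, nor was any of the 4 at an unadjusted p below 0.05 with all 6 libraries. CASP8, the initiator recruited to death receptors, was at 34.1, 34.9 and 30.9 TPM in shNC and 31.7, 30.8 and 29.5 TPM in shCUEDC1. The groups overlapped through shNC 3, and the log2 difference was -0.12 (edgeR adjusted p = 0.391). Without shNC 3 it was -0.19 with an edgeR adjusted p of 0.0224. CASP2, which the PIDDosome activates, was at 22.4, 24.4 and 27.5 TPM in shNC and 27.3, 25.9 and 26.6 TPM in shCUEDC1. Here shNC 3 was the highest library of all, and the log2 difference of 0.14 (edgeR adjusted p = 0.251) became 0.20 without it (edgeR adjusted p = 0.00824).

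CASP9, the caspase of the apoptosome, was at 8.56 to 10.5 TPM in shNC and 9.82 to 11.1 TPM in shCUEDC1, with a log2 difference of 0.15 (95% interval -0.12 to 0.42). CASP10, a close relative of caspase-8, was at 0.66 to 1.35 TPM in shNC and 0.84 to 0.98 TPM in shCUEDC1. CASP6, an executioner caspase that cleaves lamins, was at 24.8 to 29.6 TPM and 25.3 to 26.6 TPM, with a log2 difference of 0.02 (95% interval -0.16 to 0.20).

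CASP4 rose. It encodes an inflammatory caspase that binds bacterial lipopolysaccharide in the cytosol and cleaves gasdermin D, and so acts in pyroptosis rather than apoptosis. It was at 98.6, 96.8 and 105 TPM in shNC and 118, 114 and 112 TPM in shCUEDC1, with the lowest knockdown library above the highest control. The rise of CASP4 was 17.0%, or 0.23 on the log2 scale with an SE of 0.0519 and a 95% interval of 0.11 to 0.34 (edgeR adjusted p = 0.0234). Its log2 change was between 0.21 and 0.25 in the fits that left out 1 library. The call was kept only without shNC 3 and lost in the other 5 fits, where the edgeR adjusted p was 0.0744 (without shNC 2) to 0.113 (without shCUEDC1 1). CASP4 is annotated at chr11:104942866-104969436, minus strand.

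Of the apoptosome and the proteins that mitochondria release, CYCS fell and the other 3 were not called. CYCS encodes cytochrome c, which carries electrons in the respiratory chain and triggers the apoptosome once released. It was at 212, 204 and 212 TPM in shNC and 179, 173 and 174 TPM in shCUEDC1, and the groups were separated by more than their own ranges. The fall of CYCS was -14.7%, or -0.23 on the log2 scale with an SE of 0.0421 and a 95% interval of -0.32 to -0.13 (edgeR adjusted p = 0.00891). Its call was lost without shCUEDC1 1 (edgeR adjusted p = 0.0539) or shCUEDC1 2 (0.0736). CYCS is annotated at chr7:25120091-25125361, minus strand. GENCODE lists 40 pseudogenes named as copies of CYCS, so its count is uncertain to the extent that reads were split among near-identical copies.

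APAF1, the scaffold of the apoptosome, was at 13.4 to 13.8 TPM in shNC and 12.2 to 14.2 TPM in shCUEDC1, with a log2 difference of 0.02 (95% interval -0.11 to 0.15). DIABLO was at 153, 144 and 153 TPM in shNC and 156, 158 and 153 TPM in shCUEDC1, with a log2 difference of 0.08 (95% interval -0.03 to 0.19). HTRA2, a mitochondrial serine protease, was at 25.0, 24.5 and 22.5 TPM in shNC and 25.3, 27.6 and 25.9 TPM in shCUEDC1. Its groups came close without overlapping, and HTRA2 differed by 0.16 on the log2 scale, with a 95% interval of -0.03 to 0.35 (edgeR adjusted p = 0.271). The sum over APAF1, CYCS, DIABLO and HTRA2 was 387 to 403 TPM in shNC and 366 to 374 TPM in shCUEDC1. CYCS, which fell, was the largest part of that sum. The log2 differences of APAF1, DIABLO and HTRA2 were above 0, and these genes were not called. On the TPM scale the median log2 ratio over all tested genes was -0.03, and its part in this sum was not tested.

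The caspase inhibitors among the members were not called. XIAP, which binds caspases directly, was at 8.08 to 10.2 TPM in shNC and 8.24 to 10.7 TPM in shCUEDC1, with a log2 difference of 0.11 (95% interval -0.11 to 0.33). CFLAR, a caspase-8 relative without protease activity, was at 37.98, 35.2 and 48.03 TPM in shNC and 33.4, 37.1 and 37.6 TPM in shCUEDC1. The value of shNC 3 was well above all others, and the log2 difference was -0.08 with it and 0.05 without it (edgeR adjusted p = 0.662 and 0.482).

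On the receptor side TRADD rose. TRADD is the adaptor of TNF receptor 1, which leads either to NF-kB activation or to FADD and caspase-8. It was at 22.8, 21.1 and 20.6 TPM in shNC and 27.9, 30.5 and 27.3 TPM in shCUEDC1. Every knockdown library lay above every control. The rise of TRADD was 31.6%, or 0.40 on the log2 scale with an SE of 0.0867 and a 95% interval of 0.20 to 0.59 (edgeR adjusted p = 0.0194). Its call was kept without shNC 1 or shNC 3 and lost in the other 4 fits, where the edgeR adjusted p was 0.0542 to 0.107. TRADD is annotated at chr16:67154180-67160298, minus strand, where an exon of FBXL8 overlaps it on the other strand. FBXL8 was at 3.62 to 4.29 TPM over the 6 libraries and differed by 0.01 (edgeR adjusted p = 0.971).

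FADD, the adaptor that joins death receptors to caspase-8, was at 81.2, 86.0 and 69.2 TPM in shNC and 73.6, 75.3 and 74.2 TPM in shCUEDC1. Again shNC 3 was the lowest control, and the log2 difference was -0.06 with it (edgeR adjusted p = 0.726) and -0.15 without it (edgeR adjusted p = 0.0251). TNFRSF10A, the TRAIL receptor DR4, was at 9.02, 10.5 and 10.2 TPM in shNC and 8.29, 8.71 and 7.32 TPM in shCUEDC1. Its groups did not overlap, but the log2 difference of -0.26 (SE 0.104) was not called (edgeR adjusted p = 0.146).

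**Figure D4:**
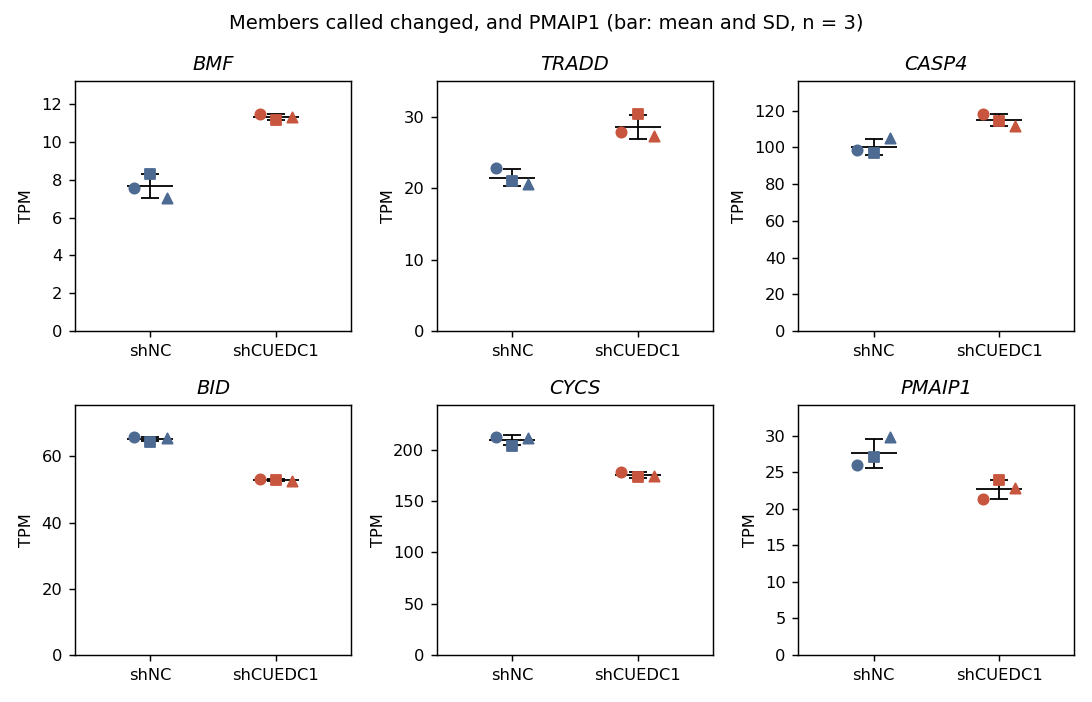
TPM per library of the 5 called members and of PMAIP1, with 1 point per library and the mean and SD (n = 3) as bars, on axes that start at 0. In each panel the 3 knockdown libraries lie on one side of the 3 controls: above them for BMF, TRADD and CASP4, and below them for BID, CYCS and PMAIP1.

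Counted over libraries rather than by the test, 9 of the 30 tested members had TPM values that did not overlap between the groups, 5 higher (BMF, BIK, CASP4, HTRA2 and TRADD) and 4 lower (BID, CYCS, PMAIP1 and TNFRSF10A). Over all genes tested the share was 30.7%, 12.1% higher and 18.5% lower, so 9 of 30 was near the background.

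Set side by side, the 5 tested pro-survival members had 0 calls, a median log2 change of 0.05 and a range of -0.11 to 0.11. None of them had an unadjusted p below 0.05 by edgeR, and DESeq2 and limma-voom called none. The 22 pro-death members had 1 rise (BMF) and 2 falls (BID and CYCS), a median of 0.02 and a range of -0.32 to 0.62. Their log2 change was above 0 for 12 and below 0 for 10. The other rises, CASP4 and TRADD, were in members assigned to neither side. Sides were assigned with earlier results of these data known, and FADD, an adaptor like TRADD, was classed as pro-death. The counts by side depend on that assignment. Whether the sides differ from each other was not tested. The ratio of the summed pro-survival level to the summed pro-death level was 0.519, 0.507 and 0.583 in shNC and 0.579, 0.578 and 0.562 in shCUEDC1. The ratios overlapped, since shNC 3 had the highest of all 6 libraries. The summed pro-death level was 942, 959 and 919 TPM in shNC and 890, 897 and 883 TPM in shCUEDC1. Without CYCS and BID it was 664, 690 and 642 TPM in shNC and 658, 671 and 656 TPM in shCUEDC1, which overlap. Since CYCS and BID were the pro-death members called lower, that overlap is no separate result. Over all tested genes the median log2 ratio on the TPM scale was -0.03, and its part in these sums was not tested. For BAK1, CASP6, CASP10 and APAF1 the mean TPM was slightly lower and the fitted log2 change slightly above 0.

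Leaving out shNC 3 raised the number of called members to 10, 5 higher and 5 lower, while the share over all genes rose to 28.1% (14.3% higher and 13.8% lower). The members added were BIK and CASP2, which were higher, and PMAIP1, CASP8 and FADD, which were lower. The 5 members called with all libraries were among the 10. Pro-survival members still had 0 calls by edgeR in that fit, with 2 of them at an unadjusted p below 0.05. Leaving out any other single library lowered both the count and the share over all genes. The count was 3 without shNC 1, shNC 2 or shCUEDC1 3, where 4.93%, 7.26% and 3.71% of all genes were called. It was 1 (BMF) without shCUEDC1 1 or shCUEDC1 2, where 3.66% and 3.34% were called.

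**Figure D5:**
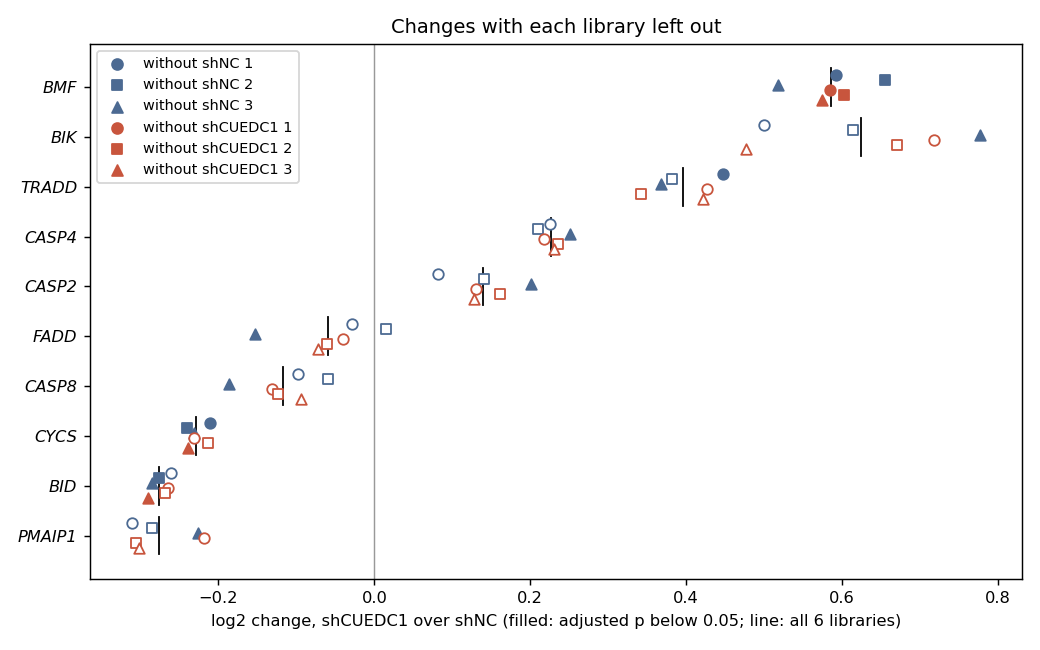
Log2 change of 10 members (those called with all libraries or without shNC 3) when each library is left out in turn, with the value from all 6 libraries as a black line and filled symbols where the edgeR adjusted p is below 0.05. BMF is filled in all 6 fits, and BIK, CASP2, CASP8, FADD and PMAIP1 are filled only without shNC 3.

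Other genes of the cell death pathways, from a list of 69 that holds further BCL2 relatives, caspases, receptors, inhibitors and gasdermins, gave 5 rises and 3 falls among the 64 tested (12.5% called). That share is near the 9.96% of all genes. Their median log2 change was -0.01. Of the 6 genes of the inhibitor of apoptosis family on that list, 3 rose (BIRC2, BIRC3 and BIRC5). Over all genes 5.19% were called higher, and the 3 rises are not read as a property of the family. The others on the list, named after their values were seen, were not called. BIRC6 was at a log2 difference of -0.01 (edgeR adjusted p = 0.946) and NAIP at 0.03 (0.924). BIRC7, at 0.64 to 1.12 TPM in shNC, was at 0.75 (edgeR adjusted p = 0.249). XIAP, of the same family but among the members above, was not called either (log2 difference 0.11, edgeR adjusted p = 0.558). BIRC3, which encodes cIAP2 and is an NF-kB target, was at 87.4, 91.6 and 118 TPM in shNC and 154, 157 and 148 TPM in shCUEDC1. It rose by 58.6%, or 0.67 on the log2 scale with a 95% interval of 0.44 to 0.89 (edgeR adjusted p = 0.00437), and kept its call in every fit that left out 1 library. BIRC2, which encodes cIAP1, rose from 103 ± 7.24 to 122 ± 2.14 TPM (SD, n = 3 each), a log2 change of 0.31 (edgeR adjusted p = 0.00706). Its edgeR adjusted p was 0.0524 without shCUEDC1 3. The cIAP proteins are ubiquitin ligases of the TNF receptor 1 complex that TRADD assembles. Also of that complex, TNFRSF1A, RIPK1 and TRAF2 were not called. Their log2 differences were -0.09, 0.07 and -0.01 (edgeR adjusted p = 0.556, 0.461 and 0.952). The ligand TNF was not called either (log2 difference -0.33, edgeR adjusted p = 0.149). Whether the rises of TRADD, BIRC2 and BIRC3 are linked was not tested. BIRC5 (survivin), a mitotic family member, rose by 16.1% (edgeR adjusted p = 0.0290) and lost its call by limma-trend on FPKM (adjusted p = 0.0539) and in 5 of the 6 fits that left out 1 library, where the edgeR adjusted p reached 0.143 without shCUEDC1 1.

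VDAC1, a channel of the mitochondrial outer membrane, rose from 363 ± 9.61 to 446 ± 8.60 TPM (SD, n = 3 each), a log2 change of 0.33 (edgeR adjusted p = 0.00200) that was called in all 6 fits. Its relatives VDAC2 and VDAC3, named after their values were seen, were not called. Their log2 differences were -0.07 and -0.06 (edgeR adjusted p = 0.358 and 0.495). GSDMD, gasdermin D, the pore protein that caspase-4 cleaves, rose from 69.1 ± 1.00 to 83.7 ± 2.07 TPM, a log2 change of 0.29 (edgeR adjusted p = 0.00954). Without shCUEDC1 2 or shCUEDC1 3 its edgeR adjusted p was 0.0691 and 0.0571. PYCARD, the inflammasome adaptor ASC, fell from 35.8 ± 4.88 to 25.7 ± 1.11 TPM (edgeR adjusted p = 0.0440), with an exon of PYCARD-AS1 on the other strand. The death receptors TNFRSF21 (DR6) and TNFRSF10B (DR5) fell by 17.0% and 13.3% (edgeR adjusted p = 0.0263 and 0.0444). Leaving out any 1 of the shCUEDC1 libraries ended the call of each of these 3 genes. PYCARD also lost its call without shNC 1 and by limma-voom (adjusted p = 0.0510). TNFRSF10B also lost its call without shNC 1 or shNC 2, without the count filter (edgeR adjusted p = 0.0533) and with limma-trend on the FPKM values (adjusted p = 0.0540). The highest edgeR adjusted p was 0.174 for PYCARD (without shCUEDC1 2), 0.126 for TNFRSF21 (without shCUEDC1 2) and 0.179 for TNFRSF10B (without shCUEDC1 1).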

How the data were processed

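RNA of 6 T47D libraries was compared, 3 shNC and 3 shCUEDC1, grouped by sample title. The deposited table gives estimated counts per gene, per the file headers read counts, not normalised by the authors. The deposited TPM and FPKM values were scaled by the authors for gene length and library size, per the file headers. The deposited signal columns, named normalised read counts per the file headers, were not used. The build was GRCh38 p13, per the submitters' processing notes, and for the aligner, counting program and strand setting, none is given in the sources used here.

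After rounding, genes were kept by filterByExpr (minimum count 10), scaled by TMM and tested with edgeR 4.0.16 under R 4.3.3 (robust quasi-likelihood F test, group as the only term). P-values were adjusted by Benjamini-Hochberg over every tested gene. Levels are deposited TPM, while log2 changes come from the counts. On the TPM scale the median log2 ratio over tested genes was -0.03. Positions are from GENCODE 29 on GRCh38, and promoters from RefSeq. All 31 members are named, and of the other cell death genes those called and some uncalled relatives or partners of named genes. Members, lists and roles were chosen with earlier results of these data known. Alternatives were RLE size factors, 2 other count filters, DESeq2 1.42.0, limma-voom (limma 3.58.1), limma-trend on log2(FPKM + 0.5), a fit blocked by replicate number, and leaving out each library. Totals of 18924327 to 19731609 reads gave 1 to 11022 reads per member and library.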

Additional observations from a re-analysis of the deposited data

How the results depend on the processing

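The members called with all libraries (BMF, TRADD, CASP4, BID and CYCS) were the same 5 under RLE size factors, no count filter, a minimum of 1 CPM in 3 libraries, DESeq2, limma-voom and limma-trend on log2(FPKM + 0.5). The samples share only a replicate number: deviations of same-numbered libraries correlated at -0.001, 0.06 and 0.03. With the replicate block, 1117 genes were called in place of 1377, and 4 members in place of 5, with CASP4 at an edgeR adjusted p of 0.0524. Under the same block, 1 of the other cell death genes was called lower in place of 3, with PYCARD at an edgeR adjusted p of 0.0502 and TNFRSF10B at 0.0835.

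Leaving out each library in turn moved the counts most. Members called higher ranged from 1 to 5 and lower from 0 to 5, with the lowest totals without shCUEDC1 1 or 2 and the highest without shNC 3, where 14 members had an unadjusted p below 0.05. In the fits with 0 members called lower, 7 and 8 members had an unadjusted p below 0.05, counted in either direction. Other cell death genes called higher ranged from 2 to 6, and lower from 0 to 9. The median of the pro-death members ranged from -0.048 to 0.023 in these fits and was -0.032 under limma-trend on FPKM. The fall of CUEDC1 ranged from -1.75 to -1.64 on the log2 scale and was called in all 6.

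Some log2 differences of members that were not called changed sign. Under limma-trend on FPKM, CASP10 was at -0.016, CASP6 at -0.0075 and APAF1 at -0.048. With 1 library left out, the ranges were -0.41 to 0.058 for BCL2A1, -0.084 to 0.12 for BAK1, -0.0039 to 0.21 for BOK and -0.071 to 0.049 for BCL2L11. They were -0.091 to 0.41 for CASP10, -0.023 to 0.084 for CASP6, -0.14 to 0.050 for CFLAR and -0.15 to 0.015 for FADD. The cause of these changes was not tested. Depth limits BCL2, BIK, HRK, CASP10 and BCL2A1 most, each with at most 79.8 reads in any library.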

Other observations

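Some members lie beside other death genes on the chromosome. CASP4 is in a cluster of inflammatory caspases on chromosome 11 with CASP5 and CASP1. CASP1, which matures interleukin-1 beta, was at 52.1 to 57.0 TPM in shNC and 45.2 to 51.7 TPM in shCUEDC1, and its log2 difference was -0.18 (edgeR adjusted p = 0.162), of the opposite sign to the rise of CASP4. CASP5 was at 1.14 to 2.11 TPM in shNC and 1.82 to 2.19 TPM in shCUEDC1, with a log2 difference of 0.44 (edgeR adjusted p = 0.430). On chromosome 22, BCL2L13 (17628855 to 17730855, plus strand) is next to BID, which fell, and was not called. On chromosome 2, CFLAR (201116104 to 201176687), CASP10 (201182881 to 201229406) and CASP8 (201233443 to 201287711) follow one another on the plus strand, and none was called with all 6 libraries by edgeR, DESeq2 or limma-voom. BIRC3 (102317450 to 102339403) and BIRC2 (102347211 to 102378670), neighbours on the plus strand of chromosome 11, both rose.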
